A study of Mus musculus with 4 samples.

Results

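The genes described here encode the machinery of oxidative phosphorylation, and they were chosen by symbol alone. They are the genes of the deposited matrix whose symbols begin with mt-Nd, mt-Co, mt-Cyt, mt-Atp, Nduf, Uqcr, Atp5, Cox4, Cox5, Cox6, Cox7 or Cox8, together with Sdha, Sdhb, Sdhc, Sdhd, Uqcc1 and Cycs. Of 20094 genes, 108 met the rule. Of these, 13 are encoded by the mitochondrial genome and 95 by the nuclear genome. By role, the nuclear members comprise 37 subunits of complex I (NADH dehydrogenase), 8 complex I assembly factors, 4 subunits of complex II (succinate dehydrogenase) and 9 members of complex III (the cytochrome bc1 complex and its assembly factor Uqcc1). A further 19 belong to complex IV (cytochrome c oxidase, with Ndufa4 and Ndufa4l2 counted there), 1 is cytochrome c and 17 belong to the ATP synthase.

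Electrons from NADH and succinate pass through complexes I and II to complex III, then by cytochrome c to complex IV, where oxygen is reduced. The protons pumped on the way drive the ATP synthase. Complex II is encoded entirely in the nucleus, whereas complexes I, III, IV and the ATP synthase join mitochondrially encoded core subunits to many nuclear ones. Photoreceptors hold dense mitochondria in their inner segments and spend much ATP on ion pumping, and Müller glia, the radial glia that span the retina, are known for a largely glycolytic metabolism.

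Single retinal cells were profiled from Abca4-/-Rdh8-/- mice on the C57BL/6J background, which clear all-trans-retinal poorly and are prone to light damage; the unbleached animals carry the same deletions. There were 4 libraries, 1 per group, from animals aged 6 weeks, each made from 4 retinae pooled from 2 mice with 15000 cells loaded. The unbleached library came from mice given DMSO vehicle without light. In the bleached groups the animals were dark-adapted for 24 h, had their pupils dilated with 1% tropicamide, received 30 min of white light at 10000 lux and were sampled 1 day later. An intraperitoneal injection 30 min before the light carried DMSO vehicle (bleached vehicle), 2 mg/kg rolipram, which inhibits phosphodiesterase 4, or 2 mg/kg BC11-38, which inhibits phosphodiesterase 11. Since each group is 1 library, a treatment cannot be told apart from its library, no test between groups was possible, and every interval below is a 95% interval that covers counting error only.

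The libraries held 5697 to 7894 cells, and the median depth per cell was 4585, 4324, 3443 and 4102 unique molecular identifiers (UMIs, 1 per captured transcript). Here and in all that follows, values by library stand in the order unbleached, bleached with vehicle, rolipram, BC11-38. The bleached vehicle library differed in sex make-up: Xist was detected in 0.176% of its cells, against 48.1% to 51.6% in the others. No deposited cell had more than 19.99% mitochondrially encoded UMIs, which limits how high this share can read. A cell barcode occurred in more than 1 library for 184 cells. Cells were clustered without the members, and clusters were given the name of the class whose markers they carried: rods, cones, Müller glia, rod bipolar cells, other bipolar cells, amacrine cells and endothelial cells had at least 50 cells in every library. Levels are given as CPM, a gene's UMIs scaled to the same fixed total of the class's own UMIs in each library, so a larger mitochondrial share lowers the other genes' CPM. The libraries were unevenly spread over the clusters of a class. Among Müller glia, 1 cluster held 308, 1016, 213 and 4 cells and another 171, 25, 830 and 555; among rods, 1 held 1077, 1878, 548 and 8, and 2 held more than 50 cells of every library (657, 175, 1107 and 1454 in the larger, 558, 139, 959 and 827 in the smaller). Values within a shared cluster are therefore given beside the class values.

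Cones had the largest mitochondrially encoded share of any of the 7 classes in all 4 libraries. It was 10.4%, 7.45%, 8.40% and 10.3% of their UMIs. In rods, the other photoreceptor class, it was 4.09%, 3.28%, 4.0% and 4.31%, so that over the whole class cones exceeded rods in every library. Müller glia had 5.29%, 3.43%, 3.90% and 4.75%, and rod bipolar cells had 8.11%, 7.38%, 6.48% and 9.49%. Other bipolar cells had 6.94%, 6.04%, 5.92% and 7.58%. Among them, 1 cluster of 77, 135, 192 and 141 cells had 10.5%, 9.01%, 8.58% and 11.6%, above cones in every library. Astrocytes, too few to be among the 7 classes (8, 23, 21 and 7 cells), had 11.7%, 7.88%, 8.58% and 13.6%, also above cones. Amacrine cells, the inhibitory interneurons, had 3.82%, 4.11%, 3.12% and 3.72%, and endothelial cells had 4.11%, 3.77%, 3.18% and 3.82%. In each of the 7 classes except amacrine cells, the 2 libraries with the highest share were the unbleached and BC11-38 libraries. The classes differed in depth, with a median of 1494.5 UMIs per cell in unbleached rods and 7807 in unbleached cones. Among cells with 4000 to under 8000 UMIs, rods had 6.86% in unbleached and 7.77% in bleached vehicle. Cones of that depth had 10.5% and 7.31%, so their order against rods turned in bleached vehicle.

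The summed nuclear members followed a different order. Rod bipolar cells had the largest nuclear share in all 4 libraries, at 4.59%, 5.38%, 4.89% and 4.58% of their UMIs. Cones came next, at 4.22%, 4.35%, 4.26% and 4.33%, a narrower spread than that of their mitochondrially encoded share. Other bipolar cells had 3.77%, 4.29%, 3.85% and 3.81%, and amacrine cells 3.57%, 4.10%, 3.65% and 3.61%. The 3 lowest classes were Müller glia with 2.64%, 3.0%, 2.28% and 2.16%, rods with 2.20%, 2.27%, 2.28% and 2.04%, and endothelial cells with 2.15%, 2.36%, 2.03% and 1.91%. Among cells with 4000 to under 8000 UMIs, rods had 3.34% in unbleached and 3.78% in bleached vehicle. Müller glia of that depth had 2.66% and 3.78%, so rods were above them in unbleached and level with them in bleached vehicle. In 6 of the 7 classes the bleached vehicle library had the highest nuclear share, rods being the exception.

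Among the 7 classes, the ratio of mitochondrially encoded to nuclear UMIs was highest in cones in every library, at 2.46, 1.71, 1.97 and 2.37, and lowest in amacrine cells, at 1.07, 1.00, 0.855 and 1.03. Rods had 1.86, 1.44, 1.76 and 2.11, and Müller glia had 2.00, 1.14, 1.71 and 2.20. Rod bipolar cells had 1.77, 1.37, 1.33 and 2.07, other bipolar cells 1.84, 1.41, 1.54 and 1.99, and endothelial cells 1.91, 1.60, 1.57 and 1.99. The bipolar cluster of 77, 135, 192 and 141 cells had 2.65, 2.27, 2.25 and 3.12, above cones in every library. The ratio was lower in the bleached vehicle than in the unbleached library in all 7 classes, and higher with BC11-38 than with bleached vehicle in all 7. With rolipram it was above bleached vehicle in rods, cones, Müller glia and other bipolar cells and below it in rod bipolar, amacrine and endothelial cells. Within the largest shared amacrine cluster the direction turned, with 1.18 in bleached vehicle and 1.30 with rolipram. This ratio does not depend on how the libraries are scaled. Among cells with 4000 to under 8000 UMIs it was 2.06 in rods and 2.39 in cones in unbleached. In bleached vehicle it was 2.06 in rods and 1.60 in cones of that depth.

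**Figure D1:**
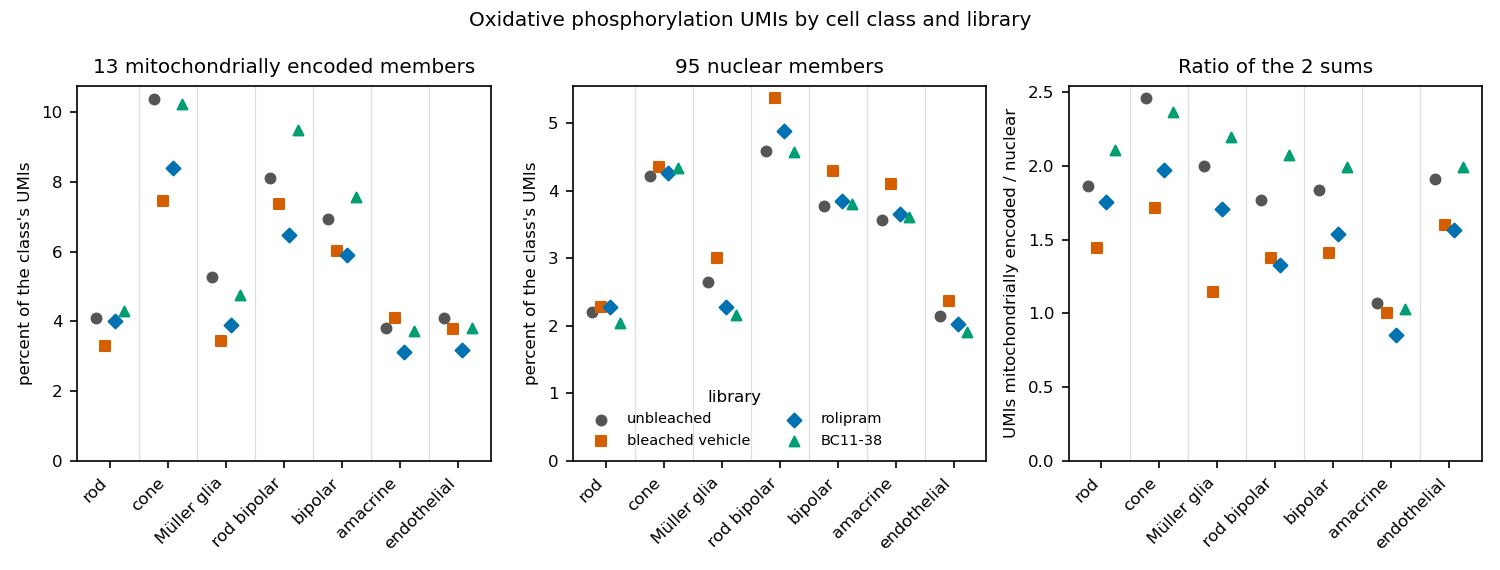
Summed mitochondrially encoded members (left) and summed nuclear members (middle) as a percentage of each class's UMIs, and their ratio (right), for 7 cell classes (x axis); each point is 1 library, coloured by group. Cones have the highest mitochondrially encoded share in each library, rod bipolar cells the highest nuclear share, and the bleached vehicle points lie below the unbleached ones in the ratio panel in every class.

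Light exposure with vehicle went with a lower mitochondrially encoded sum in 6 of 7 classes. Bleached over unbleached, it was 0.648-fold in Müller glia (0.645 to 0.650), 0.717-fold in cones (0.712 to 0.722) and 0.803-fold in rods (0.797 to 0.809). Rod bipolar cells stood at 0.910-fold, other bipolar cells at 0.870-fold and endothelial cells at 0.918-fold. Amacrine cells stood at 1.08-fold over the whole class, but within their largest shared cluster the log2 ratio was -0.22, the opposite direction. Of 387 amacrine cells in the bleached vehicle library, 124 lay in that cluster, against 65 of 1083 in the unbleached library.

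The nuclear sum in the same comparison lay between 1.03-fold, in rods and cones, and 1.17-fold, in rod bipolar cells. The rod and cone values turned below 1 with trimmed-mean (TMM) scaling, at log2 -0.08 in both, and the rod value also within the largest shared cluster, at -0.05. Müller glia had 1.13-fold, other bipolar cells 1.14-fold, amacrine cells 1.15-fold and endothelial cells 1.10-fold. In rods, TMM scaling moved all log2 ratios of this comparison by -0.13, in cones by -0.12 and in Müller glia by 0.05.

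Both inhibitors were compared with bleached vehicle, so the pair of comparisons shares that library. With BC11-38, the mitochondrially encoded sum was 1.31-fold in rods, 1.38-fold in cones, 1.39-fold in Müller glia, 1.28-fold in rod bipolar cells and 1.255-fold in other bipolar cells. Amacrine cells had 0.906-fold over the class and a log2 ratio of 0.18 within the largest shared cluster. Endothelial cells had 1.01-fold, with an interval of 0.998 to 1.03, and log2 -0.02 with TMM scaling. With rolipram, the same sum was 1.22-fold in rods, 1.13-fold in cones and 1.14-fold in Müller glia, the last turning to log2 -0.04 with TMM scaling. It was 0.878-fold in rod bipolar cells, 0.981-fold in other bipolar cells, 0.760-fold in amacrine cells and 0.843-fold in endothelial cells, and the value of other bipolar cells turned to log2 0.08 within their largest shared cluster. In the largest shared amacrine cluster the share was 6.18% in bleached vehicle and 6.16% with rolipram, nearly level.

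For the nuclear sum, BC11-38 over bleached vehicle was 0.720-fold in Müller glia, 0.811-fold in endothelial cells, 0.851-fold in rod bipolar cells, 0.887-fold in other bipolar cells and 0.880-fold in amacrine cells. Rods had 0.899-fold, which TMM scaling turned to log2 0.02, and cones 0.995-fold, which it turned to log2 0.10. With rolipram the nuclear sum was 0.761-fold in Müller glia, 0.909-fold in rod bipolar cells, 0.897-fold in other bipolar cells, 0.890-fold in amacrine cells and 0.860-fold in endothelial cells. Rods had 1.00-fold, and log2 -0.07 among cells that had Y-linked but not Xist UMIs. Cones had 0.980-fold, turning to log2 0.02 with TMM scaling. In the Müller cluster with 308, 1016 and 213 cells of unbleached, bleached vehicle and rolipram, the nuclear share was 2.71%, 2.86% and 2.52%. In the one with 171, 830 and 555 cells of unbleached, rolipram and BC11-38, it was nearly level, at 2.06%, 2.11% and 2.12%. The part of cluster make-up in the Müller class values was not tested.

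The 2 inhibitors, given at the same dose and time, were also set against each other in the 7 classes. The mitochondrially encoded sum was lower with rolipram than with BC11-38 in all 7, from 0.683-fold in rod bipolar cells to 0.928-fold in rods, and it was lower under every alternative that gave a value. In rods the log2 ratio was -0.11, but only -0.0045 among cells with under 10% mitochondrially encoded UMIs. The nuclear sum was 1.11-fold in rods and 0.985-fold in cones, and 1.01-fold to 1.07-fold in the other 5 classes. The nuclear value changed sign under at least 1 alternative in cones, Müller glia, other bipolar and amacrine cells. With 1 library each, these differences were not tested.

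The mitochondrially encoded share also varied with the depth of the cell. Among rods with at least 1000 and under 2000 UMIs it was 3.18%, 2.25%, 3.09% and 3.47%, and at 2000 to under 4000 UMIs it was 3.94%, 3.93%, 5.78% and 5.3%. At 500 to under 1000 UMIs the rod values were 2.96%, 2.83%, 3.30% and 3.08%. The bleached vehicle library was lowest in each of these 3 windows, and nearly level with the unbleached one in the deepest. From 4000 to under 8000 UMIs, where only the vehicle libraries had enough rods, the order turned, with 6.86% in unbleached and 7.77% in bleached vehicle. Müller glia with 8000 to under 16000 UMIs had 5.47%, 3.49%, 4.14% and 6.05%, and those with 4000 to under 8000 UMIs had 4.6%, 4.26%, 3.68% and 3.61%, so there the inhibitor libraries were the lower ones. At 16000 UMIs or more, the unbleached Müller glia had 4.99% and the bleached vehicle ones 3.14%. Median depth in Müller glia was 11503, 13686, 5543 and 6759 UMIs per cell. Its part in the Müller glia results was not tested.

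**Figure D2:**
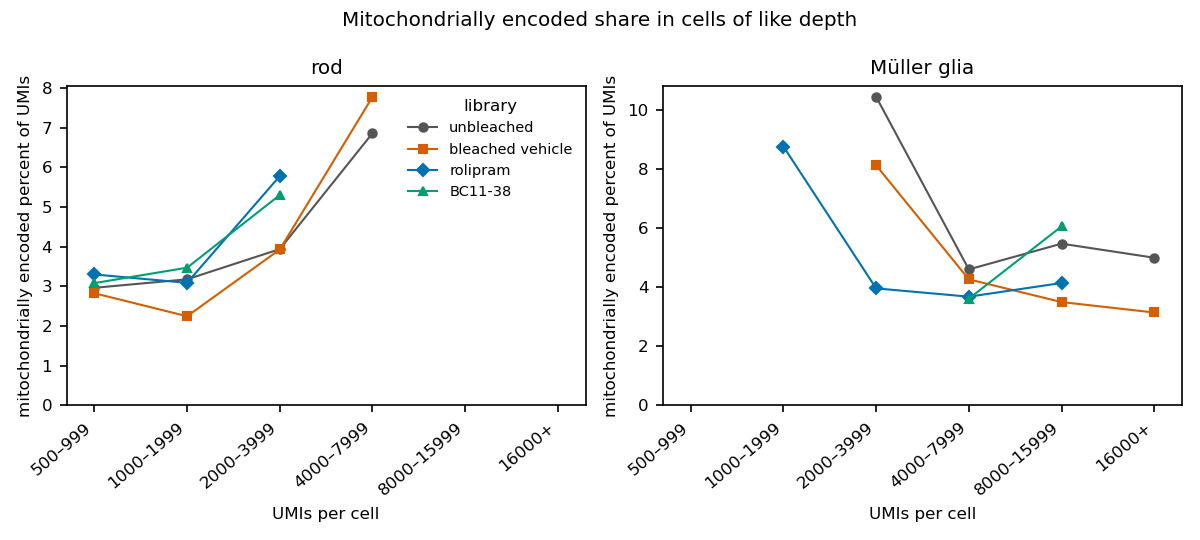
Mitochondrially encoded percentage of UMIs (y axis) in rods (left) and Müller glia (right), for cells grouped by UMIs per cell (x axis); each line is 1 library. In rods the bleached vehicle line is the lowest between 500 and 4000 UMIs. In Müller glia it is the lowest from 8000 to 16000 UMIs and not from 2000 to 8000.

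Within clusters the same rod contrast was seen. In the rod cluster with 1077, 1878 and 548 cells in the first 3 libraries, the mitochondrially encoded share was 4.11%, 2.95% and 3.62%. In the larger rod cluster shared by all 4 libraries it was 3.79%, 3.10%, 3.94% and 4.08%, and in the smaller one 3.70%, 3.11%, 3.95% and 4.78%. For Müller glia, the cluster with 308, 1016 and 213 cells had 5.2%, 3.23% and 3.84%. No Müller cluster held 50 cells of both the bleached vehicle and the BC11-38 library, so that pair was compared across different clusters.

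Individual mitochondrially encoded genes shared the lower level after light. In rods all 13 had a log2 ratio below 0, from -0.54 to -0.07 with a median of -0.33, although none passed 1.5-fold. The median of all 8610 genes counted in rods (those with at least 100 UMIs over the pair of libraries) was 0.09, and 7.11% of them passed 1.5-fold in either direction. In cones the median of the 13 was -0.52 and 4 were lower past 1.5-fold, beside 8.03% of all genes in either direction. In Müller glia the median was -0.61 and 7 were lower past 1.5-fold, beside 15.8% of all genes. In rod bipolar cells the median was -0.23 and 1 was lower past 1.5-fold, beside 8.27%. All 13 were below 0 in each of these 4 classes.

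The most abundant member of each complex in rods shows the levels. mt-Atp6, the ATP synthase subunit that forms its proton channel, had 8775, 7308, 8110 and 9011 CPM in rods and 11810, 8173, 7686 and 9460 CPM in Müller glia. The oxidase core subunit mt-Co3 had 7370, 5729, 7733 and 8499 CPM in rods and 6618, 3948, 6354 and 7358 CPM in Müller glia. mt-Cytb, the complex III cytochrome b, had 6306, 5176, 6427 and 6461 CPM in rods. For the complex I subunit mt-Nd2, rods had 3179, 2255, 2687 and 2676 CPM, so that both inhibitor libraries lay between the vehicle libraries. Bleached vehicle was the lowest library for all 4 genes in rods, and for mt-Co3 in Müller glia, where mt-Atp6 was lowest with rolipram.

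Across the 7 classes, mt-Nd1, mt-Nd2, mt-Nd4l and mt-Atp8 were lower in bleached vehicle than in unbleached in 7 of 7. For mt-Atp8 the log2 ratio ran from -0.86 to -0.34. The counts of mt-Atp8 and mt-Atp6, and of mt-Nd4l and mt-Nd4, are uncertain, because in the annotation these genes overlap on the same strand (mt-Atp8 at 7766 to 7969 and mt-Atp6 at 7927 to 8607 of the mitochondrial genome, GRCm38).

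The 13 genes did not keep the same proportions in the rolipram library. mt-Nd3, a small membrane subunit of complex I, was lower with rolipram than with bleached vehicle in 7 of 7 classes, at log2 -0.77 to -0.19, and lower than with BC11-38 in 7 of 7, at -0.84 to -0.35. As a share of the mitochondrially encoded UMIs, which needs no scaling between libraries, mt-Nd3 made up 2.73%, 2.92%, 2.10% and 2.48% in rods, 1.58%, 1.76%, 1.08% and 1.41% in cones, and 3.97%, 4.51%, 2.54% and 2.97% in Müller glia. It was lowest with rolipram in all 7 classes. mt-Nd4l, also of complex I and with the overlap named above, had the opposite order: its share was highest with rolipram in all 7, for example 1.35%, 1.32%, 1.86% and 1.43% in rods. mt-Nd6, the single member on the other strand, stood apart in Müller glia, with a log2 ratio of -0.61 for BC11-38 over bleached vehicle where the median of the 13 was 0.46.

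**Figure D3:**
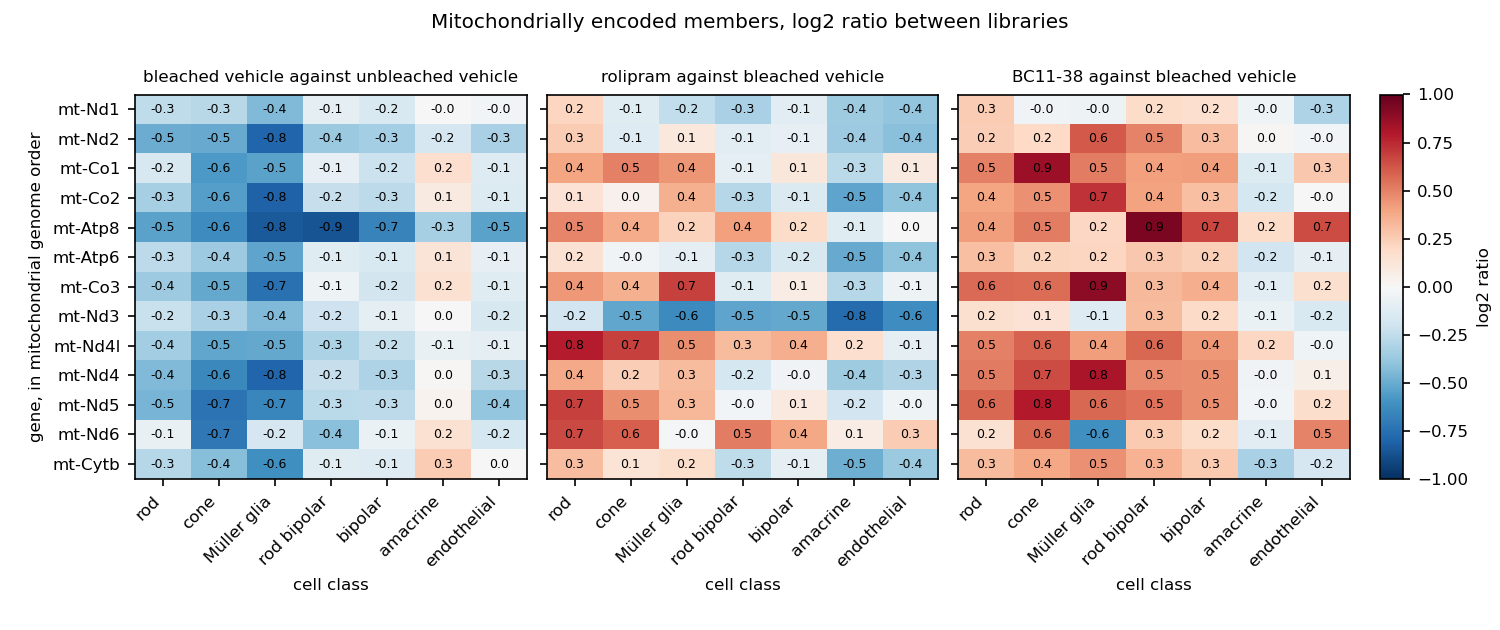
Log2 ratio (colour) of each of the 13 mitochondrially encoded genes (rows, in genome order) in 7 cell classes (columns) for bleached vehicle over unbleached, rolipram over bleached vehicle and BC11-38 over bleached vehicle; each ratio is between 2 libraries. In the first panel all 13 genes are below 0 in rods, cones, Müller glia and rod bipolar cells, and mt-Nd3 is below 0 in every class of the rolipram panel.

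In rods, the nuclear members of the core machinery differed little between libraries. Ndufs1, the largest subunit of complex I, had 78.2, 80.6, 87.3 and 82.4 CPM. Sdha, the flavoprotein of complex II, had 185, 164, 185 and 185 CPM, and Uqcrc1, a core protein of complex III, had 159, 150, 149 and 164 CPM. Cox4i1, the common form of oxidase subunit 4, had 583, 604, 626 and 485 CPM, and the catalytic ATP synthase subunit Atp5b had 677, 597, 665 and 686 CPM. Cycs, which encodes cytochrome c, had 154, 144, 145 and 130 CPM.

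Of 88 nuclear members counted in rods, 3 were higher and none lower past 1.5-fold in bleached vehicle over unbleached, against the 7.11% of all genes given above. Their median log2 ratio was 0.04. All 3 are of complex I: the accessory subunit Ndufa3 had 198, 313, 174 and 133 CPM, a 1.58-fold ratio of bleached vehicle over unbleached (1.45 to 1.73). The assembly factor Ndufaf8 had 55, 86.5, 63.4 and 45.8 CPM and a ratio of 1.57-fold (1.33 to 1.87). Ndufaf6, another assembly factor, had 52.2, 81.2, 34.0 and 28.8 CPM and a ratio of 1.55-fold (1.31 to 1.85). Bleached vehicle was the highest library for each of these 3 genes. With TMM scaling, and within the largest shared cluster, 0 nuclear members passed 1.5-fold. In the larger rod cluster shared by all 4 libraries, Ndufa3 had 154, 186, 174 and 137 CPM, and in the smaller one 104, 204, 119 and 115 CPM, the 204 resting on 29 UMIs. Bleached vehicle was the highest library for Ndufa3 in both. At the other end were the oxidase-related subunit Cox7a2l at 0.780-fold and Sdhb, the iron-sulfur protein of complex II, at 0.797-fold.

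With rolipram over bleached vehicle, 1 nuclear member was higher and 3 were lower past 1.5-fold in rods, beside 10.4% of all genes in either direction. With BC11-38, 2 were higher and 4 lower, beside 17.4%, and the median of the nuclear members was -0.15, beside -0.16 over all genes. Cox7a2l had 163, 127, 181 and 192 CPM, so both inhibitor libraries were above both vehicle libraries; over bleached vehicle it was 1.43-fold with rolipram (1.27 to 1.61) and 1.51-fold with BC11-38 (1.34 to 1.70). Likewise, Ndufa10, an accessory subunit of complex I, had 208, 189, 257 and 275 CPM. Over the whole class, bleached vehicle was the lowest library for both. In the larger rod cluster shared by all 4 libraries, Cox7a2l had 180, 130, 178 and 200 CPM, so rolipram was not above unbleached. In the smaller one it had 131, 134, 173 and 150 CPM, the 134 resting on 19 UMIs, so bleached vehicle was not the lowest. In the cluster of the first 3 libraries it had 155, 124 and 174 CPM.

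The lower end in rods held Ndufa3 and assembly factors of complex I. Ndufa3 was 0.556-fold with rolipram (0.505 to 0.612) and 0.426-fold with BC11-38 (0.383 to 0.473). Ndufaf5, an assembly factor that modifies a subunit of complex I, had 143, 187, 87.3 and 107 CPM, which is 0.466-fold with rolipram (0.408 to 0.531) and 0.570-fold with BC11-38. Ndufaf6 was 0.418-fold with rolipram (0.338 to 0.515) and 0.355-fold with BC11-38 (0.282 to 0.444). These folds were closer to 1 within the clusters with at least 50 cells of both libraries. Ndufaf6 had 32.2, 37.2, 26.8 and 31.9 CPM in the larger rod cluster shared by all 4 libraries, from 12 UMIs in bleached vehicle, and 68.8, 84.4 and 63.0 CPM in the cluster of the first 3 libraries. Ndufaf5 had 114, 111, 78.7 and 109 CPM in the larger shared cluster and 91.2, 134, 87.1 and 95.6 CPM in the smaller one, so BC11-38 was near bleached vehicle in the first and below it in the second. Over the 8 assembly factors the median log2 ratio in rods was 0.27 for bleached over unbleached, -0.15 for rolipram and -0.42 for BC11-38. Between the inhibitors no nuclear member of 88 passed 1.5-fold in rods, where 5.67% of all genes did.

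Of 86 nuclear members counted in cones, 1 was higher in bleached vehicle than in unbleached past 1.5-fold, beside the 8.03% of all genes given above. It was Ndufaf6, with 35.6, 56.6, 43.9 and 46.8 CPM. At the lower end, Cox7a2l had 352, 265, 323 and 415 CPM, and Cox8a, the common form of oxidase subunit 8, had 2896, 2501, 3088 and 3409 CPM; bleached vehicle was the lowest library for both. With rolipram none passed 1.5-fold in cones, beside 13.4% of all genes. The ATP synthase subunit Atp5k was the highest there at 1.39-fold, and Uqcrb, of complex III, the lowest at 0.706-fold. With BC11-38, Cox7a2l alone passed, at 1.57-fold (1.40 to 1.76), beside 14% of all genes. Ndufaf5 in cones had 362, 332, 302 and 465 CPM, so that BC11-38 was the highest library, unlike in rods.

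Rod bipolar cells had a higher nuclear median after light with no member past 1.5-fold, where 8.27% of all genes were. Of 87 counted, 74 had a log2 ratio above 0 for bleached vehicle over unbleached, with a median of 0.21, and the median over all genes was 0.03. For complex I alone, 36 of 37 were above 0. Ndufc1, an accessory subunit of complex I, had 566, 836, 753 and 639 CPM, and the assembly factor Ndufaf3 had 69.6, 104, 103 and 79.2 CPM. With rolipram 1 of 87 was lower past 1.5-fold, beside 10.5% of all genes, and with BC11-38 2 of 88 were lower, beside 13.3%. Atp5mpl, a small subunit of the ATP synthase, was the lowest in both, with 2976, 4115, 1922 and 1946 CPM. It stood at 0.467-fold with rolipram (0.452 to 0.482) and 0.473-fold with BC11-38 (0.458 to 0.488), and both inhibitor libraries were below the unbleached one. With BC11-38 the other member past 1.5-fold was the assembly factor Ndufaf8, at 0.652-fold.

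Of 93 nuclear members counted in Müller glia, 3 were higher and 3 lower past 1.5-fold in bleached vehicle over unbleached, beside 15.8% of all genes, and the median log2 ratio was 0.15. With rolipram over bleached vehicle 3 were higher and 23 lower, with a median of -0.40; with BC11-38 3 were higher and 33 lower, with a median of -0.44. These counts stand beside a broad difference between the libraries' Müller glia, since 36% of all genes passed 1.5-fold with rolipram and 42.2% with BC11-38, with all-gene medians of 0.09 and 0.08. Between the inhibitors 1 of 92 passed, beside 7.23%. TMM scaling moved the log2 ratios of the inhibitors by -0.22 and -0.25, and within the shared cluster 10 nuclear members passed with rolipram in place of 26. The share of all genes past the fold within that cluster is not given.

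By complex, the ATP synthase was lower throughout in these Müller glia. All 17 of its members had a log2 ratio below 0 with each inhibitor, with medians of -0.57 and -0.66. Past 1.5-fold were 7 of the 17 with rolipram and 11 with BC11-38, beside 36% and 42.2% of all genes in either direction. The rolipram count was thus near the share of all genes. For complex I, 5 of 37 were lower past 1.5-fold with rolipram and 7 with BC11-38, and none was higher. Complex IV went both ways: of 17 counted, 3 were higher and 5 lower with rolipram, and 3 were higher and 10 lower with BC11-38. Rod markers summed to 1272, 1025, 2345 and 2341 CPM in the Müller glia and all 12 were above 0. Malat1, a nuclear RNA, had 65324, 43140, 73560 and 83174 CPM. The part of these in the result was not tested.

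The 3 complex IV members that were higher in Müller glia with the inhibitors are alternative forms of subunits. Cox4i2, the form of subunit 4 best known from lung and induced by low oxygen, had 528, 335, 631 and 670 CPM in Müller glia. It stood at 0.634-fold in bleached vehicle over unbleached (0.609 to 0.660), 1.89-fold with rolipram (1.81 to 1.96) and 2.00-fold with BC11-38 (1.92 to 2.10). Bleached vehicle was the lowest library, and also within the cluster shared by 3 libraries, at 477, 334 and 511 CPM. In the cluster with 171, 830 and 555 cells of unbleached, rolipram and BC11-38, Cox4i2 was nearly level, at 686, 675 and 667 CPM. Cox4i2 made up 38.1%, 27.3%, 43.5% and 47.5% of the UMIs of the 2 subunit 4 genes in Müller glia, and 1.28% of them in unbleached rods. Cox6b2, the form of subunit 6B known from testis, had 65.5, 41.4, 127 and 156 CPM, which is 3.07-fold with rolipram and 3.76-fold with BC11-38. It made up 10.5%, 5.97%, 22.1% and 26.5% of the UMIs of Cox6b1 and Cox6b2. Within the cluster shared by 3 libraries, Cox6b2 had 53.4, 39.9 and 83.3 CPM in unbleached, bleached vehicle and rolipram. In the other cluster named above it had 101, 145 and 151 CPM in unbleached, rolipram and BC11-38. Ndufa4l2, the low-oxygen-induced relative of Ndufa4, had 7.28, 4.67, 12.1 and 7.67 CPM. Its bleached-over-unbleached log2 ratio of -0.63 turned to 0.41 within the shared cluster. Ndufa4l2 stood at 2.58-fold with rolipram (1.90 to 3.51) and 1.64-fold with BC11-38 (1.06 to 2.49). Pericyte markers, carried by the endothelial class in which Ndufa4l2 was highest, summed to 63.1, 40.2, 85.3 and 102 CPM in Müller glia. They too were lowest in bleached vehicle. Their part in the Ndufa4l2 values was not tested.

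The nuclear member with the highest ratio of bleached vehicle over unbleached in Müller glia was Cox6a2, the heart and skeletal muscle form of oxidase subunit 6A. It had 2, 279, 0 and 0 UMIs in Müller glia, or 13.9 CPM in bleached vehicle. Over unbleached this is 51.5-fold (14.1 to 427). Against a floor of 3 UMIs over the class, it was at least 32.1-fold higher than with rolipram and at least 18.7-fold higher than with BC11-38. The UMIs came from 117 of 1384 cells, or 8.45% (7.04% to 10.0%), with up to 10 in a cell. In the other libraries 1 of 588, 0 of 1192 and 0 of 595 cells had one. Of the bleached vehicle UMIs, 223 came from a cluster with 1016 of its cells and 52 from a cluster with 313. These clusters held 213 and 109 rolipram cells, with 0 UMIs, but only 4 and 36 BC11-38 cells. Another cluster held 830 rolipram and 555 BC11-38 cells and had 0 UMIs in every library. Both floors thus rest largely on cells of a cluster without Cox6a2 in any library. In amacrine cells, Cox6a2 was found in 3.05%, 1.03%, 2.81% and 4.13% of cells, and bleached vehicle was the lowest library there. The summed amacrine markers in Müller glia were 872, 568, 1057 and 1805 CPM and were lowest in bleached vehicle, where 2 of the 14 were at 0.

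Cycs and Atp5g1 were highest in the bleached vehicle Müller glia. Cycs had 84.4, 165, 58.7 and 64.6 CPM there, which is 1.96-fold for bleached over unbleached (1.80 to 2.14), 0.355-fold with rolipram (0.319 to 0.393) and 0.390-fold with BC11-38 (0.343 to 0.443). A Cycs UMI was found in 50.5%, 67.8%, 27.6% and 34.1% of Müller cells, a share that also follows depth. Within the cluster shared by 3 libraries, Cycs had 92.2, 164 and 70.8 CPM. In the cluster with 171, 830 and 555 cells of unbleached, rolipram and BC11-38, Cycs had 43.1, 53.2 and 63.1 CPM. Unbleached was thus the lowest of these libraries there, unlike over the class. Atp5g1, 1 of 3 genes for the c-ring subunit of the ATP synthase, had 370, 509, 238 and 179 CPM, which is 0.468-fold with rolipram (0.444 to 0.493) and 0.351-fold with BC11-38 (0.325 to 0.378). Within the cluster shared by 3 libraries it had 406, 488 and 326 CPM. In the other cluster Atp5g1 was nearly level, at 187, 200 and 174 CPM in unbleached, rolipram and BC11-38. Ndufaf4, a complex I assembly factor, had 31.3, 60.1, 37.5 and 38.1 CPM and was highest in bleached vehicle too.

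The promoters of these 2 genes are shown because both were highest in the bleached vehicle Müller glia and lower with each inhibitor. The sequences are RefSeq windows of GRCm38.p6, read 5′ to 3′ on the gene's strand, and each covers 200 bases that begin 250 bases before the annotated start. Cycs lies on the minus strand (chr6:50566620-50566819) and Atp5g1 on the minus strand (chr11:96075682-96075881). Capitals mark a cAMP response element (TGACGTCA) and a match to the NRF1 word on the other strand.
Cycs: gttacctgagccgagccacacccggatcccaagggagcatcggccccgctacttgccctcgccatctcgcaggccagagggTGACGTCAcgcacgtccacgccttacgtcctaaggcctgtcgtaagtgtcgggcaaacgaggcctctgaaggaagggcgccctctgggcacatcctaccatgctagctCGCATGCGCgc
Atp5g1: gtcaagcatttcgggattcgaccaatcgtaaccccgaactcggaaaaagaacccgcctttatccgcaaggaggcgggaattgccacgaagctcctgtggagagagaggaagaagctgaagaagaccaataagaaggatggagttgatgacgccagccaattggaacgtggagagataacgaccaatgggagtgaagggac

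In the Cycs promoter the CRE match begins at 169 bases and the NRF1 match at 61 bases before the start; the Atp5g1 window held none of the words searched. A window of 300 bases (250 before to 50 after the start) was found for 77 of the 95 nuclear members. On either strand, the NRF1 word GCGCATGCG was present in 14.3% of these members' windows and in those of 1.95% of all 27025 genes with a RefSeq window, and GCATGCGC, which overlaps it, in 16.9% and 3.05%. The YY1 word AAGATGGCG was present in 10.4% and 1.64%, the GABPA word CCGGAAG in 24.7% and 9.93%, and its longer form CCGGAAGTG in 2.6% and 2.25%. The CRE word TGACGTCA was present in 6.49% and 2.03%, and the TATA word TATAAA in 10.4% and 15.7%. These are matches of letters and not measured binding.

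**Figure D4:**
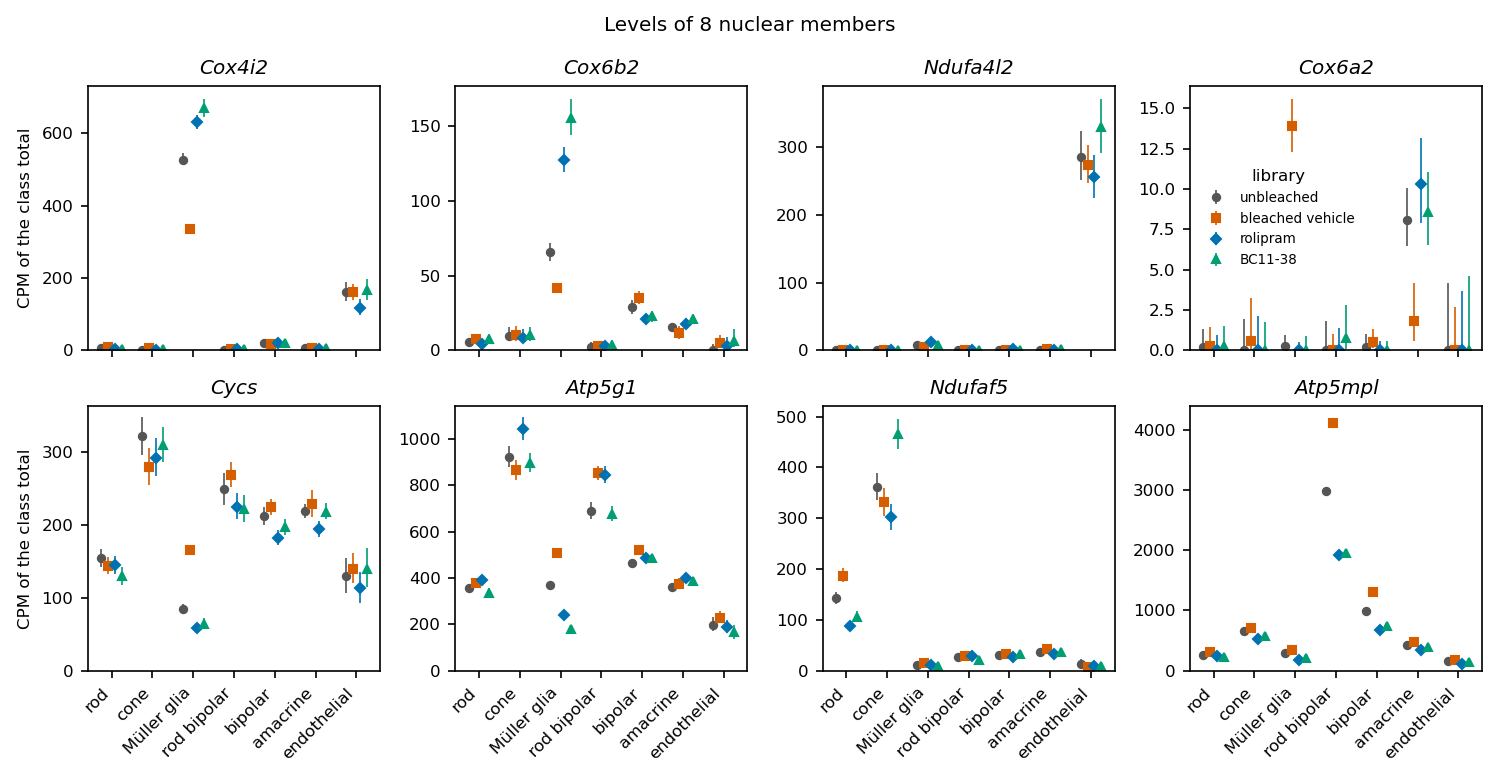
CPM of the class total (y axis) of 8 nuclear members in 7 cell classes (x axis); each point is 1 library and the bars are exact 95% Poisson intervals, which cover counting error only. Cox4i2 and Cox6b2 are highest in Müller glia, Ndufa4l2 in the endothelial class (which also carries pericyte markers), Ndufaf5 in cones and Atp5mpl in rod bipolar cells. Cycs and Atp5g1 in Müller glia are highest in bleached vehicle.

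**Figure D5:**
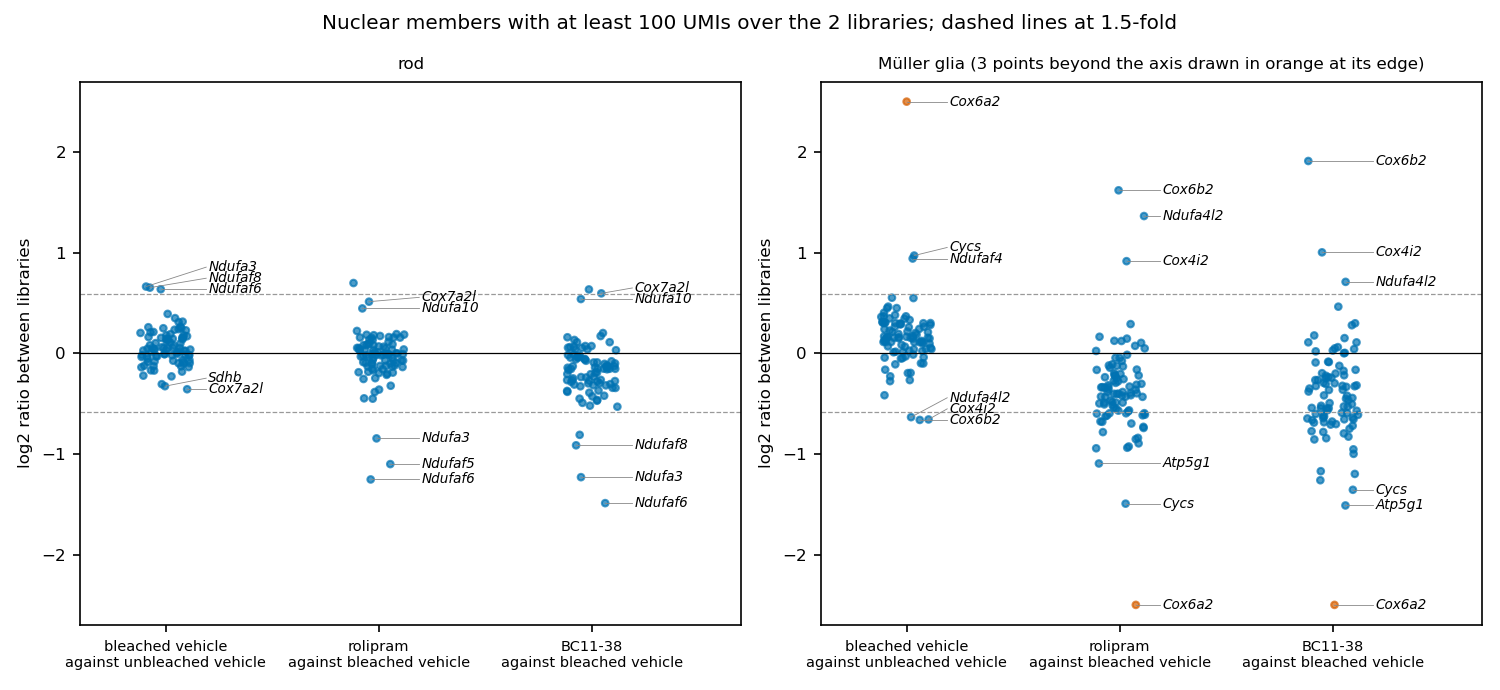
Log2 ratio between 2 libraries (y axis) of each nuclear member with at least 100 UMIs over them, in rods and in Müller glia, for 3 comparisons (x axis); dashed lines mark 1.5-fold and points beyond the axis are drawn at its edge in orange. Labels name the members described in the text. In both classes most points lie inside the dashed lines. In Müller glia 23 of 93 lie below with rolipram and 33 of 93 with BC11-38. Beside these, 36% and 42.2% of all genes passed 1.5-fold in either direction.

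Genes around oxidative phosphorylation were counted in the same Müller glia to set the members in context, beside the 15.8%, 36% and 42.2% of all genes past 1.5-fold in the 3 comparisons. Of 24 mitochondrial import genes, 6 were higher past 1.5-fold in bleached vehicle over unbleached, 13 were lower with rolipram and 13 with BC11-38. Of 78 mitochondrial ribosome genes, 9 were higher after light, and 19 and 20 were lower with the inhibitors, shares below those of all genes. Of 9 mitochondrial chaperones and proteases, 2 were higher and then 6 and 6 lower. Of 16 genes of the tricarboxylic acid cycle none passed after light, and 4 and 5 were lower, also shares below those of all genes. Of 17 glycolysis genes, 2 were lower after light, 5 were higher and 2 lower with rolipram, and 5 were higher and 4 lower with BC11-38. The cytosolic ribosome differed most: of 89 genes, 22 were higher after light, with a median of 0.49, and 82 and 84 were lower, with medians of -0.99 and -1.32, against -0.40 and -0.44 for the nuclear members. In rods, none of 15 tricarboxylic acid cycle genes passed in any of the 3 comparisons, where 7.11%, 10.4% and 17.4% of all genes did.

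Between cell classes the nuclear members varied by a median of 2.44-fold, taken as the highest over the lowest class in the unbleached library for the 92 members with at least 100 UMIs. The highest class was the cone for 32, the rod bipolar cell for 31, the amacrine cell for 10, the other bipolar cell for 8, the rod for 5, Müller glia for 5 and the endothelial cell for 1. The lowest was the endothelial cell for 37 and the rod for 34. Depth was not matched here, and rods were the shallowest class, with a median of 1494.5 UMIs per cell in that library. The same class was highest in all 4 libraries for 55 of the 92.

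The 6 members with the widest range were Cox4i2, Ndufa4l2, Ndufaf5, Cox6b2, Atp5mpl and Ndufaf6. Cox4i2 in the unbleached library ran from 528 CPM in Müller glia to 0.523 CPM in cones, where it had 1 UMI, a ratio of 1008 (181 to 39838). Ndufa4l2 had 286 CPM in the endothelial class and 0 UMIs in cones, so it was at least 182-fold higher. In the endothelial class it made up 34.9%, 30.5%, 32.8% and 42.9% of the UMIs of Ndufa4 and Ndufa4l2. That class also carried pericyte markers, which summed to 6725, 6647, 6199 and 8358 CPM with 0 of 7 at 0. Which of its cells the Ndufa4l2 UMIs came from was not tested. Cox6b2 was at least 19.4-fold higher in Müller glia than in endothelial cells, where it had 0 UMIs. Ndufaf5 had 362 CPM in cones and 11.9 CPM in Müller glia, a 30.5-fold range (24.4 to 38.5), and Atp5mpl had 2976 CPM in rod bipolar cells and 159 CPM in endothelial cells, an 18.8-fold range. Ndufaf6 had 52.2 CPM in rods and 3.37 CPM in endothelial cells, from 3 UMIs, a ratio of 15.5.

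Of the 92, 21 had a range under 2-fold. Sdhb had the narrowest, at 1.16-fold, and the next 4 were Atp5a1 of the ATP synthase at 1.23-fold, Uqcrc2 of complex III at 1.49-fold, the complex I subunit Ndufa9 at 1.66-fold and Cox6a1 at 1.68-fold. Cox4i1 in the unbleached library had 1600 CPM in rod bipolar cells, 1318 in other bipolar cells, 1269 in cones, 1183 in amacrine cells, 857 in Müller glia, 694 in endothelial cells and 583 in rods. Atp5b had 1011 CPM in cones, 911 in rod bipolar cells, 785 in other bipolar cells, 701 in amacrine cells, 677 in rods, 451 in endothelial cells and 367 in Müller glia. Among the 3 c-ring genes, Atp5g1 made up 47.0%, 42.2%, 51.0% and 47.4% of the UMIs in cones. The muscle forms were rare: Cox8b had 205 UMIs, Cox7a1 907 and Cox6a2 553 over all cells, and Cox7b2 had 29.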

How the data were processed

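Single-cell libraries (10x v3 chemistry) of mouse retina were used as the authors deposited them: natural log values, ln(1 + UMIs per 10000) per gene and cell. Per the submitters' processing notes, Cell Ranger 6.0.1, Seurat 3.2.2 and mm10 were used. UMIs were recovered from the deposited natural log values; 100% of the values came out within 0.001 of a whole number, giving 140410160 UMIs in 26543 cells. The design had allowed for counts or log values, and no count model was fitted, since each group is 1 library. The members and lists were chosen with earlier results of these data known.

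Cells were clustered with scanpy 1.11.5 (2000 variable genes without the members, 30 components, 15 neighbours, Leiden resolution 1, 38 clusters). Clusters were named for the class of which most markers, as a share and at least 3, were found. A marker was found if in at least 15% of cells and 2-fold above the median of the other clusters' means. A rod bipolar cluster with more bipolar than rod bipolar markers among its leading genes was named bipolar. The rules that left mixed clusters unnamed were set after seeing the clusters. Scrublet called between 0 and 13 cells per library, up to 0.165%, so it did not work here and most doublets remain. UMIs were summed per class and library; intervals are exact (Clopper-Pearson for shares, Poisson for levels, conditional binomial for ratios). A difference was counted past 1.5-fold among genes reaching 100 UMIs in the pair of libraries, and log2 ratios had 0.5 UMIs added. Named genes were the most abundant mitochondrially encoded member of each complex, the 3 highest and 3 lowest nuclear ratios per class and comparison, 1 core subunit per complex, isoform pairs, and the widest and narrowest ranges; mt-Nd4l, mt-Nd1, mt-Atp8, Cox7b2 and the gene counts of clusters were chosen after their values were seen. Positions come from GENCODE M21 (GRCm38), in which 106 members matched 1 gene. A further group named in the series text was not analysed here, and 1 member that the naming rule selects is counted but not reported by name here.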

Additional observations from a re-analysis of the deposited data

Results flagged for a closer look

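Several summed values differed in direction between cell classes within the same pair of libraries; the differences were not tested. For bleached vehicle over unbleached, the mitochondrially encoded sum was 0.648-fold in Müller glia and 1.08-fold in amacrine cells. For rolipram over bleached vehicle it was 0.760-fold in amacrine cells and 1.22-fold in rods. For BC11-38 over bleached vehicle it was 0.906-fold in amacrine cells and 1.39-fold in Müller glia. The amacrine class had 387 cells in bleached vehicle against 945 to 1083 in the others, and 124 of the 387 lay in the cluster with the highest mitochondrially encoded share of the 3 largest there, which held 65 to 95 cells of the other libraries. In that cluster the share was 7.19%, 6.18%, 6.16% and 7.02% (unbleached, bleached vehicle, rolipram, BC11-38). For rolipram over BC11-38, the nuclear sum was 0.985-fold in cones and 1.11-fold in rods.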

How the results depend on the processing

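No paired analysis was possible because each group is 1 library. The alternatives restricted to the largest shared cluster, and without rods under 1000 UMIs and the shallow Müller cluster, were chosen after seeing the data.

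The number of classes (of 7) with a higher nuclear sum for BC11-38 over bleached vehicle was 0, and 2 with TMM scaling, 1 as a mean over cells and 1 when scaled without mitochondrially encoded UMIs. For rolipram it was 1, and 2 with TMM, 2 as a mean over cells, 0 among Y-positive cells (Y-linked UMIs, no Xist) and 0 without the shallow cells. The number with a higher mitochondrially encoded sum for bleached over unbleached was 1, and 0 in the shared cluster.

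In rods the log2 ratio of the mitochondrially encoded sum kept its sign throughout. For BC11-38 over bleached vehicle it was 0.39, with 0.56 under TMM, 0.43 without the highest doublet scores, 0.42 as a mean over cells, 0.38 under 10% mitochondrially encoded, 0.21 in Y-positive cells, 0.41 scaled without mitochondrially encoded UMIs and 0.43 without shallow rods. For bleached over unbleached it was -0.32, and in the same order -0.44, -0.35, not moved, -0.36, -0.37, -0.33 and -0.34, with -0.48 in the shared cluster. For rolipram over bleached vehicle it was 0.28, with 0.41, 0.31, 0.35, 0.38 and 0.12 for the first 5 settings and 0.30 without shallow rods. For rolipram over BC11-38 it was -0.11, with -0.19 under TMM, -0.070 as a mean over cells, -0.0045 under 10%, -0.10 in Y-positive cells, -0.047 in the shared cluster and -0.13 without shallow rods. The cause was not tested.

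Ndufa4l2 in Müller glia, bleached over unbleached, turned from -0.63 to 0.33 in Y-positive cells and to 0.41 in the shared cluster. The other named members kept their sign in all settings run. Of 93 Müller nuclear members, 26 were past the fold with rolipram and 36 with BC11-38, beside 36% and 42.2% of all genes. TMM gave 52 and 55, a looser fold threshold gave 59 and 61, and a fold of 2 gave 5 and 8. The share of all genes is not given at these other settings, so their counts show only the dependence on the setting.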
